A study of Mus musculus with 150 samples.

Results

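The sodium channel beta subunits are small membrane proteins that accompany the large pore-forming alpha subunits of voltage-gated sodium channels. The 3 genes described here are Scn2b, Scn3b and Scn4b, taken by symbol as 3 of the 54082 rows of the deposited count table. Each beta subunit crosses the membrane a single time and carries an extracellular immunoglobulin domain. Beta subunits alter channel gating, bring channels to the cell surface and act as adhesion molecules. The proteins of Scn2b and Scn4b are bound to the alpha subunit by a disulfide bridge, whereas that of Scn3b is held without one. The cytoplasmic tail of the Scn4b protein is known as an open-channel blocker that gives rise to resurgent sodium current in fast-firing neurons. In rat dorsal root ganglia, Scn3b has been described mainly in small C-fibre neurons.

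RNA of 150 single somatosensory neurons from CD1 mice (Charles River) was sequenced by Smart-seq, which copies whole polyadenylated transcripts of a single cell. By label, 45 neurons innervated hairy skin, 1 carried the labels of both skin types and entered no comparison, and all others innervated glabrous (hairless) skin. Mice were at postnatal day 4 (P4, 33 cells) or postnatal day 5 (P5, all other cells) and came from 10 litters, which served as the replicates. No genotype or treatment is named. The sources used here do not give the way in which neurons were matched to skin types, or whether cells of a litter came from the same animal. Joined litter names such as E_F_G were each taken as 1 litter. Cells were spread over 2 plates and 5 cDNA libraries. Most glabrous-skin cells were on plate 1 and most hairy-skin cells on plate 2. Litter K had glabrous-skin cells on both plates but hairy-skin cells on plate 2 only. Comparing skin types within that litter therefore did not take out the plate.

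Total counts per cell ran from 395811 to 1053854 and detected genes from 4360 to 15865, with 6 cells below 10000 genes. Neurons were divided at 500 CPM (counts scaled to the library total) of Nefh, the heavy neurofilament gene of large myelinated neurons. This gave 19 hairy-skin and 84 glabrous-skin Nefh-high neurons, and 26 hairy-skin and 20 glabrous-skin Nefh-low neurons. The cells nearest the division had 623 CPM above it and 377 CPM below it, and 13 cells above and 7 below lay within 2-fold of it. The class is therefore a range of Nefh and not a cell type. The median total count was 748674 in Nefh-high and 711181 in Nefh-low neurons, and the median number of detected genes was 14363 in Nefh-high and 13253 in Nefh-low neurons. Of the 6 cells below 10000 genes, 1 was Nefh-high and 5 were Nefh-low. The markers of the myelinated A-fibre neurons that sense light touch (low-threshold mechanoreceptors) included Nefh itself. Without Nefh their summed level had a median over litters of 1389 CPM (range 1114 to 2826) in Nefh-high and 817 CPM (500.4 to 979.6) in Nefh-low neurons. RNA of other cells was present as well. All 7 Schwann cell markers reached 1 CPM in both classes, with summed medians of 1776 CPM (1083 to 3985) in Nefh-high and 5658 CPM (1909 to 12647) in Nefh-low neurons. All 6 fibroblast markers did so too, at 284 CPM (179 to 1093) in Nefh-high and 1329 CPM (297 to 3726) in Nefh-low neurons. So did all 6 satellite glia markers, at 1518 CPM (632 to 3725) in Nefh-high and 2626 CPM (424 to 3494) in Nefh-low neurons. Macrophage, endothelial and blood markers had summed medians of 5.17, 8.18 and 22.2 CPM in Nefh-high and 43.1, 10.1 and 47.6 CPM in Nefh-low neurons. Blood markers reached 30592 CPM in 1 Nefh-low sum. The part of this RNA in the results below was tested only by leaving out the 25% of cells richest in it.

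All 3 genes lie on the forward strand of chromosome 9 (mm10, GENCODE models). Scn2b spans chr9:45117782-45130070 and Scn4b spans chr9:45138395-45154152. They are next to each other, 8324 bases apart, with no other coding gene between them. Scn3b lies at chr9:40269217-40291618, 4.83 Mb away. Their longest coding transcripts measured 4656 bases in 4 exons (Scn2b), 4150 bases in 7 exons (Scn3b) and 4982 bases in 5 exons (Scn4b). An antisense lincRNA, Gm10684, overlaps the body of Scn2b but shares 0 exonic bases with it. Windows of 250 bases before to 50 bases after the RefSeq start (GRCm38.p6) were on hand for both neighbours, at chr9:45117626-45117925 for Scn2b and chr9:45138374-45138673 for Scn4b. The GENCODE models start further upstream, inside these windows. The Scn2b window was 38.3% G and C and held 2 CG dinucleotides, and 76.7% of 32851 mouse promoter windows of that length held more. The Scn4b window was 66.3% G and C with 26 CG dinucleotides, and 15.5% of windows held more. The neighbours thus differ widely in the composition of their start regions.

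RNA of all 3 subunits was found together in nearly every Nefh-high neuron but in fewer of the Nefh-low neurons. Scn2b was detected in 95.3% of the compared neurons (exact 95% interval 90.6 to 98.1), Scn3b in 96.6% (92.3 to 98.9) and Scn4b in 90.6% (84.7 to 94.8). These intervals cover counting error only. All but 1 of the Nefh-high neurons and 30 of 46 Nefh-low neurons held all 3. The 7 cells with no Scn2b count and the 5 with no Scn3b count were all Nefh-low, as were 13 of the 14 cells with no Scn4b count. All 5 cells without Scn3b were among the 6 cells below 10000 genes, as were 5 of those without Scn4b and 2 of those without Scn2b.

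Scn4b varied most from cell to cell. It had a median of 49.8 CPM in Nefh-high neurons (quartiles 34.5 and 92.05, maximum 360) and 13.2 CPM in Nefh-low neurons (quartiles 0 and 55.5, maximum 94.7). Scn3b had medians of 71.2 CPM (51.6 and 101.7) in Nefh-high and 106.2 CPM (66.1 and 168) in Nefh-low neurons. Scn2b was similar in the middle of both distributions, at 17.9 CPM (10.2 and 25.8) in Nefh-high and 18.3 CPM (7.48 and 25.2) in Nefh-low neurons. The single-cell values of all 3 genes overlapped between the classes over most of their range.

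**Figure D1:**
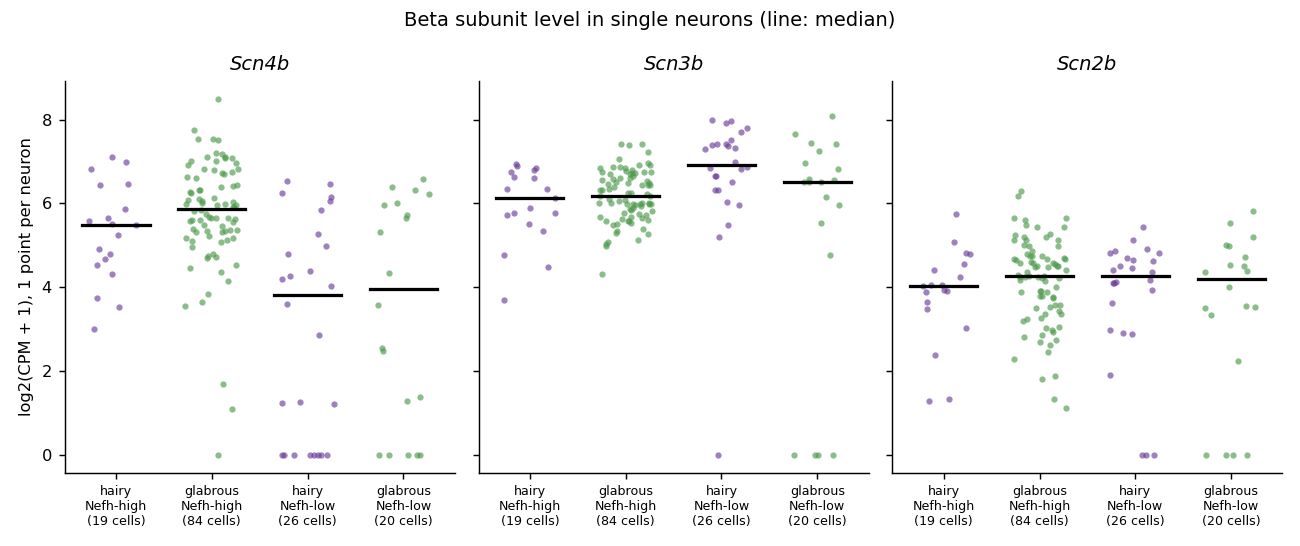
Level of Scn4b, Scn3b and Scn2b in each neuron, as log2(CPM + 1), by skin type and Nefh class; each point is 1 cell and each line a median. Scn4b falls to 0 in 13 Nefh-low cells and in 1 Nefh-high cell. Scn2b falls to 0 in 7 Nefh-low cells and has a low median in all 4 groups.

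The first comparison asked how the mix of beta subunits differs between Nefh-high and Nefh-low neurons. Scn4b was higher in Nefh-high neurons, and no difference was called for Scn2b. Scn3b was lower by a smaller amount, in a marginal call that changed with the form of the low-count filter. Counts were summed per litter and class, and the 7 litters with 2 or more cells in both classes were used. In edgeR's quasi-likelihood test with the litter as a block, 2988 of 13135 genes passed a Benjamini-Hochberg adjusted p of 0.05, which is 22.7% of genes (11.6% higher, 11.2% lower). Of the 3 subunits 1 was higher and 1 lower, against that background.

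Scn4b, the resurgent-current subunit, measured 61.1, 28.03, 83.5, 125.9, 84.9, 84.6 and 68.01 CPM in Nefh-high neurons of litters E_F_G, H, I, L, M, O and P_Q. In Nefh-low neurons of the same litters it measured 33.6, 8.07, 31.9, 19.7, 46.1, 28.3 and 17.4 CPM. It was higher in Nefh-high neurons in 7 of 7 litters, and the groups overlapped only through litter H, which was low in both classes. The Nefh-high sums of L, the highest value, and of M held 2 cells each. The means were 76.6 ± 29.7 CPM in Nefh-high and 26.4 ± 12.5 CPM in Nefh-low neurons (SD, n = 7 litters). The log2 fold change was 1.49 ± 0.21 (SE, edgeR adjusted p = 0.00112), a 2.82-fold difference. It lay between 1.32 and 1.63 without any 1 litter, and was 1.12 without the 25% of cells richest in non-neuronal markers. It did not pass on plate 1 alone (1.24, adjusted p = 0.0591, 3 litters), in glabrous cells alone (1.02, 0.227, 3 litters) or in hairy cells alone (0.87, 0.245, 3 litters), the adjusted p ranging from 9.2e-10 to 0.245 over 25 alternatives.

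Scn3b, the subunit described in rat C-fibre neurons, measured 87.97, 111.6, 65.3, 78.1, 45.8, 90.8 and 82.4 CPM in Nefh-high neurons of the same 7 litters. In Nefh-low neurons it measured 95.2, 86.1, 89.6, 155.9, 155.0, 128.3 and 116.9 CPM. It was lower in Nefh-high neurons in 6 litters and higher in litter H, and the groups overlapped. The means were 80.3 ± 20.7 CPM in Nefh-high and 118.1 ± 29.6 CPM in Nefh-low neurons. The log2 fold change of -0.63 ± 0.20 lay just inside the threshold (edgeR adjusted p = 0.0479). This call is marginal: without litter E_F_G, I, L, M, O or P_Q the adjusted p lay above 0.05, and without H it was 0.0187. It was also above the threshold, at 0.0659 (change -0.58), with the low-count filter grouped by the whole design, which was the form first run and was replaced after seeing the data. The change was -0.33 (adjusted p = 0.474, 4 litters) without the cells richest in non-neuronal markers, and -0.057 (0.943, 3 litters) in glabrous cells alone. With every cell of a sum weighted equally (mean log2 of CPM + 1, limma) it was 0.019, where the median of all genes was shifted by 0.40; the adjusted p ranged from 0.0172 to 0.967 over 25 alternatives.

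Scn2b measured 18.0, 21.1, 22.1, 13.6, 1.48, 17.8 and 19.3 CPM in Nefh-high neurons of those litters. It measured 21.9, 28.9, 15.6, 16.3, 23.3, 12.6 and 13.4 CPM in Nefh-low neurons. The groups overlapped in part. The lowest Nefh-high value was that of litter M, a sum of 2 cells, and the Nefh-low values of H and M lay above all Nefh-high values. The means were 16.2 ± 7.04 CPM in Nefh-high and 18.9 ± 5.996 CPM in Nefh-low neurons, and the log2 fold change of -0.35 ± 0.40 did not pass (edgeR adjusted p = 0.567).

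**Figure D2:**
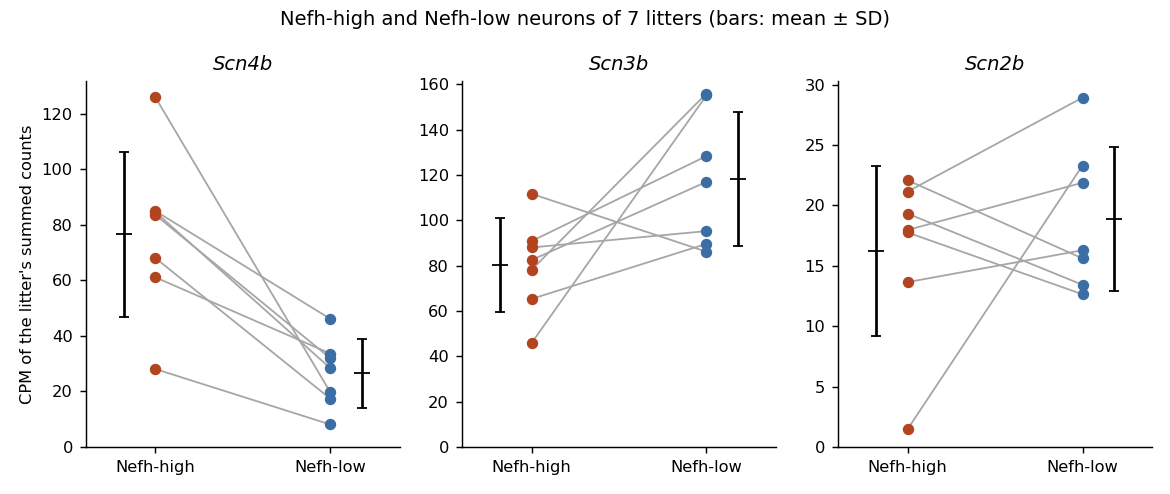
CPM of summed counts per litter for Scn4b, Scn3b and Scn2b, Nefh-high left and Nefh-low right; lines join the classes of a litter and bars give the mean ± SD of 7 litters. Scn4b is higher in Nefh-high neurons in all 7 litters, Scn3b is lower in 6 of 7, and the Scn2b lines run both ways.

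Levels of the 3 genes were set against each other after division by transcript length. Scn3b was above Scn4b in 7 of 7 litters in Nefh-low neurons. In Nefh-high neurons Scn4b was above Scn3b in 3 of 7 litters (I, L and M). The Nefh-high sums of L and M held 2 cells each. The mean shares of Scn4b and Scn3b in Nefh-high neurons lay within the spread between litters. Per kilobase of the longest coding transcript, Scn3b made up 50.6 ± 11.9% of the sum of the 3 in Nefh-high and 74.9 ± 6.41% in Nefh-low neurons (SD, n = 7 litters). Scn4b made up 40.4 ± 14.7% in Nefh-high and 13.9 ± 5.78% in Nefh-low neurons, and Scn2b made up 8.95 ± 4.09% in Nefh-high and 11.3 ± 5.13% in Nefh-low neurons. The sum of the 3 was 38.2 ± 5.73 CPM per kb in Nefh-high and 37.8 ± 8.11 CPM per kb in Nefh-low neurons, a gap far smaller than the spread. No source used here says whether the deposited counts were already scaled for length. On the unscaled counts the shares of Scn3b were 46.6 ± 12.2% in Nefh-high and 71.96 ± 6.91% in Nefh-low neurons, and those of Scn4b 44.1 ± 15.3% in Nefh-high and 15.9 ± 6.51% in Nefh-low neurons. Cell by cell, Scn4b exceeded Scn3b per kilobase in 30 Nefh-high neurons (29.1%, exact interval 20.6 to 38.9) and in 2 of the 44 Nefh-low neurons with any of the 3 genes (4.55%, 0.555 to 15.5). Both intervals pool the cells of all litters and cover counting error only, so they are no test between the classes. Scn2b was the highest of the 3 in 4 Nefh-high and 2 Nefh-low neurons.

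**Figure D3:**
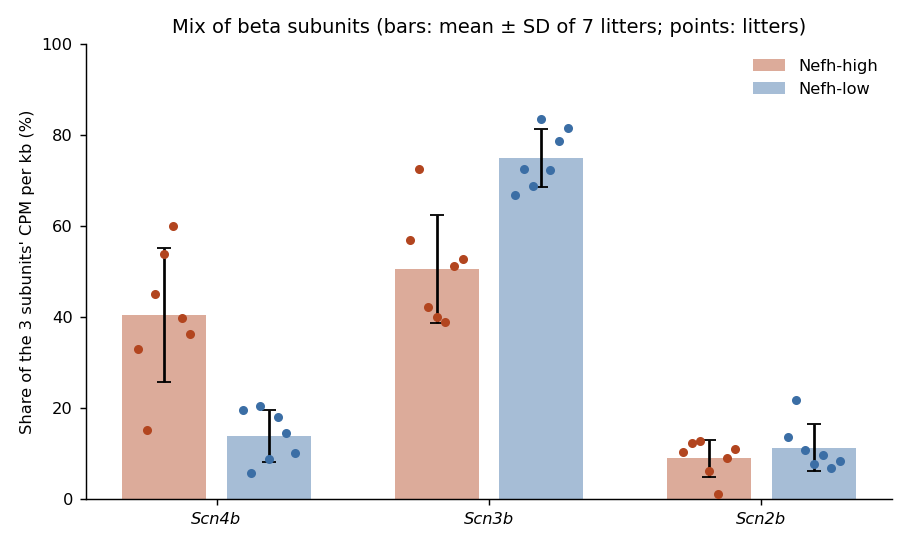
Share of each subunit in the sum of the 3 (CPM per kb of the longest coding transcript, in percent), Nefh-high beside Nefh-low; bars are means ± SD of 7 litters and points are litters. The share of Scn4b is 40.4% in Nefh-high and 13.9% in Nefh-low neurons, and that of Scn3b 50.6% in Nefh-high and 74.9% in Nefh-low neurons.

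Across 8 expression clusters, described without a test, Scn4b had the widest range. None of the 3 genes was among the 2000 variable genes used for clustering, though other genes of the same cells were. The highest mean was in a cluster of 17 cells, all glabrous, that resembled A-fibre mechanoreceptors. Its leading genes were Cckar, a cholecystokinin receptor, and Runx3, a transcription factor known from proprioceptors, and it is called the Runx3 cluster here. Scn4b averaged 126.5 ± 116.8 CPM over its 6 litters, with a cell median of 69.5 CPM. Litter P_Q gave it a single cell of 359.8 CPM, and without that litter the mean was 79.9 ± 26.6 CPM, close to that of the next cluster. Next came an unnamed cluster of 21 cells at 73.8 ± 31.6 CPM. Of these, 20 were glabrous and the last was the cell labelled with both skin types, which is part of that mean. Then came 2 other A-fibre-like clusters at 60.1 ± 38.6 CPM (19 cells) and 50.1 ± 29.5 CPM (15 cells, with the most Ntrk2, the BDNF receptor gene). A cluster resembling peptidergic nociceptors, 29 of whose 32 cells were Nefh-high, had 57.4 ± 23.9 CPM. The 22 cells led by Tafa4, a chemokine-like gene of C-fibre touch neurons, had 45.2 ± 22.1 CPM, and the 10 cells led by Mrgprd, a receptor gene of non-peptidergic nociceptors, had 41.3 ± 34.4 CPM. These neighbours in the order did not differ beyond their spread between litters.

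Scn4b was almost missing from the last cluster. It held 14 cells of 6 litters (10 hairy, 4 glabrous; 11 Nefh-low), resembled peptidergic nociceptors and had a median of 7928 CPM of Calca, the gene of the neuropeptide CGRP. Scn4b averaged 2.35 ± 4.58 CPM over its litters (0.49 ± 0.48 CPM without litter P_Q), and 9 of its 14 cells held no Scn4b count. The other cells at 0 were 3 in the Nefh-high peptidergic cluster and 1 each in the A-fibre-like cluster of 19 cells and the Tafa4 cluster. The same 14 cells had 98.6 ± 23.5 CPM of Scn3b and a median of 13367.5 detected genes, with 0 cells below 10000 genes. Without this cluster the Nefh-high over Nefh-low change of Scn4b was 1.11 ± 0.22 (edgeR adjusted p = 0.00676), and that of Scn3b was -0.73 ± 0.25 (adjusted p = 0.0637).

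Scn3b was highest in the Tafa4 cluster, with a cell median of 158 CPM and 125.9 ± 48.01 CPM over 8 litters. That cluster also had the most non-neuronal marker RNA, at a median of 9223 CPM. The other clusters ran from 57.3 ± 31.1 CPM in the A-fibre-like cluster of 19 cells to 109.8 ± 46.95 CPM in the Ntrk2 cluster, each within the spread of the next. Scn2b was lowest in the Runx3 cluster, at 9.65 ± 4.78 CPM over 6 litters with a cell median of 7.29 CPM. In the remaining clusters it averaged between 16.3 ± 8.43 and 24.7 ± 3.27 CPM.

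The genes of the alpha subunits, the pores that the beta subunits join, split between the classes. Of the 10 such genes listed, 8 were tested, 3 were higher and 1 was lower in Nefh-high neurons, with a median log2 fold change of 0.41 against -0.05 over all genes tested, of which 11.6% were higher and 11.2% lower. Scn1a averaged 160.2 ± 45.04 CPM in Nefh-high and 24.2 ± 11.8 CPM in Nefh-low neurons, with a log2 fold change of 2.73 (edgeR adjusted p = 6.0e-04). Scn8a, the main alpha subunit of mature nodes of Ranvier, averaged 120.8 ± 25.9 CPM in Nefh-high and 44.8 ± 32.2 CPM in Nefh-low neurons, a change of 1.54 (adjusted p = 0.00128). Scn7a, whose product responds to sodium concentration, changed by 0.96 (adjusted p = 8.6e-04). The 3 of them were higher in Nefh-high neurons in 7 of 7 litters, as Scn4b was. Scn11a, which encodes the persistent-current channel of nociceptors, fell to 42.7 ± 39.9 CPM in Nefh-high neurons, against 282.6 ± 94.6 CPM in Nefh-low neurons, a change of -3.10 (adjusted p = 0.00336). Scn10a, the other tetrodotoxin-resistant channel of nociceptors, averaged 204.3 ± 115.9 CPM in Nefh-high and 535.2 ± 251.3 CPM in Nefh-low neurons and did not pass (-1.67 ± 0.65, adjusted p = 0.0937). Scn2a, Scn3a and Scn9a had changes of 0.22 ± 0.27, 0.59 ± 0.23 and 0.21 ± 0.13 that did not pass, and Scn4a was too low to be tested.

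Correlations of beta with alpha subunits across single neurons are given as Spearman's rho, as descriptions. Cells share litters, plates and depth, so they are not independent and no p is given. Over all compared neurons Scn4b correlated with Scn1a at 0.48 and with Scn8a at 0.48, and with Nefh at 0.52. With Scn10a it correlated at -0.24. Within Nefh-high neurons the rho with Scn1a was 0.23 and that with Scn8a 0.25. Within Nefh-low neurons they were 0.57 and 0.50, so both pairs stayed positive inside each class. Across the 9 litters with at least 6 cells, the rho of Scn4b with Scn1a ran from 0.35 to 0.90. That with Scn10a ran from -0.83 to -0.07, so both kept their sign in each of the 9. Inside the classes the rho with Scn10a was -0.18 in Nefh-high and -0.022 in Nefh-low neurons, where Pearson's r on log2(CPM + 1) was 0.19, so the negative sign did not hold within Nefh-low neurons.

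Scn2b had its highest alpha-subunit correlation with Scn9a, a channel of nociceptors and other sensory neurons that showed no called difference between the classes. The rho was 0.43 over all neurons, 0.30 in Nefh-high and 0.69 in Nefh-low neurons, and between 0.24 and 0.86 within the 9 litters. With Scn1a it was -0.10 over all neurons, -0.26 in Nefh-high and 0.24 in Nefh-low neurons. Scn3b correlated with Scn9a at 0.26 over all neurons, 0.21 in Nefh-high and 0.52 in Nefh-low neurons, and from -0.25 to 0.69 within litters. Its rho with Scn8a was -0.21 over all neurons, -0.21 in Nefh-high and 0.36 in Nefh-low neurons. No single sign therefore described Scn3b with Scn8a.

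Of 24 pairs with 8 alpha subunits, 23 had a higher rho in Nefh-low neurons, and without the cells below 10000 genes 17 had. The 7 others were then Scn2b with Scn2a, and all 3 beta subunits with Scn10a and with Scn11a. Scn3b with Scn10a had a rho of -0.021 in Nefh-high and -0.42 in Nefh-low neurons without those cells. There Scn4b with Scn1a kept 0.21 in Nefh-high and 0.50 in Nefh-low neurons, and Scn2b with Scn9a 0.29 in Nefh-high and 0.63 in Nefh-low neurons. The number of detected genes correlated with Scn2b, Scn4b and Scn3b at 0.12, 0.12 and -0.030 in Nefh-high neurons and at 0.59, 0.41 and 0.37 in Nefh-low neurons. The total count correlated with them at 0.16, -0.045 and -0.12 in Nefh-high neurons and at 0.42, 0.22 and 0.0045 in Nefh-low neurons. The beta subunits hardly correlated with each other over all neurons: 0.07 for Scn2b with Scn3b, 0.01 for Scn2b with Scn4b and -0.01 for Scn3b with Scn4b. Scn2b and Scn4b had a rho of -0.22 in Nefh-high and 0.42 in Nefh-low neurons.

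**Figure D4:**
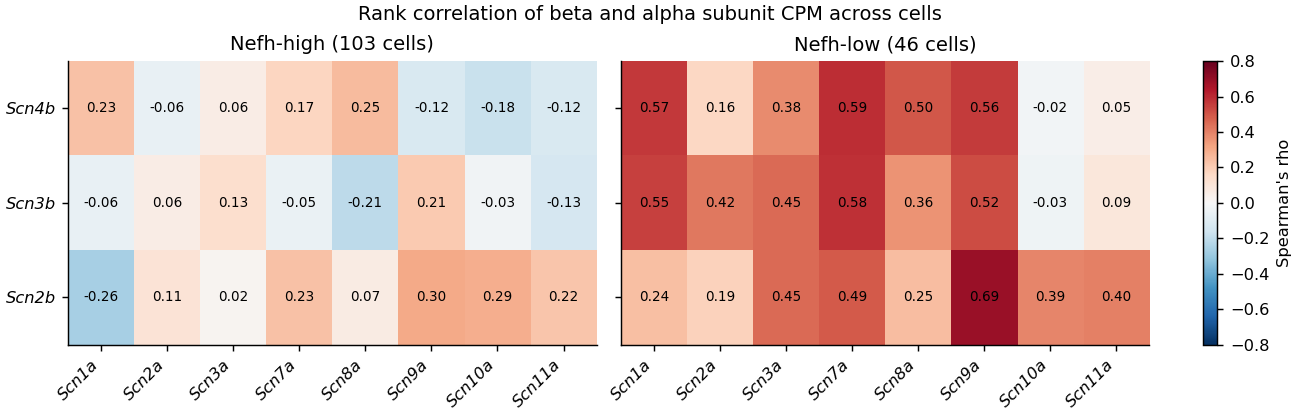
Spearman's rho between each beta subunit (rows) and 8 alpha subunits (columns) across single cells, in Nefh-high neurons (left) and Nefh-low neurons (right). In Nefh-low neurons the highest value is Scn2b with Scn9a (0.69), and in Nefh-high neurons Scn4b is positive with Scn1a (0.23) and Scn8a (0.25).

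The 5 genes most like each subunit were taken by rho over all compared neurons from 13178 genes detected in at least 75 cells. Both Nefh classes were pooled for this choice, which favours genes that differ between the classes as the subunit does. Their class differences, given below, are therefore no separate result. Over all genes tested 11.6% were higher and 11.2% lower in Nefh-high neurons. For Scn4b they were Chrnb2 (0.57), a nicotinic receptor subunit, Atp2b2 (0.57), a plasma membrane calcium pump, Nfasc (0.56), a cell adhesion protein of nodes and initial segments, Kcna2 (0.55), a fast potassium channel, and Dlgap3 (0.55), a synaptic scaffold protein. All 5 were higher in Nefh-high neurons, with log2 fold changes between 0.70 (Chrnb2) and 2.55 (Nfasc). For Scn3b they were Coro2a (0.52), an actin-binding coronin, Abtb2, Wdr6, Stmn4 and Zer1 (0.51). All but Stmn4 were lower in Nefh-high neurons, with changes between -0.98 (Coro2a) and -0.57 (Abtb2). For Scn2b they were Nsg2 (0.52), a neuronal endosomal protein, Pou4f1 (0.50), the sensory neuron transcription factor BRN3A, AI413582, Arfgef3 and Vat1 (0.47). Of these, Nsg2 and AI413582 were lower in Nefh-high neurons, by -0.67 and -1.08. The highest 5% of genes began at rho values of 0.35 for Scn4b, 0.30 for Scn3b and 0.27 for Scn2b.

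Genes of the axon initial segment and node, where sodium channels and beta subunits gather, were mostly higher in Nefh-high neurons. Of 13 tested 11 were higher and 1 lower, against 11.6% higher and 11.2% lower over all genes, and with a median log2 fold change of 1.32 against -0.05. Kcnq3, a subunit of the slow M-current channel, averaged 18.8 ± 8.03 CPM in Nefh-high and 1.05 ± 0.88 CPM in Nefh-low neurons, a change of 4.15 (edgeR adjusted p = 2.6e-04). Cntnap2, which clusters potassium channels beside the node, changed by 2.89 (adjusted p = 4.4e-04) and Kcna1, a potassium channel of that region, by 2.44 (2.6e-04). Ank3, the ankyrin-G scaffold that anchors sodium channels, was the 1 lower gene, at 81.8 ± 25.6 CPM in Nefh-high and 200.1 ± 68.2 CPM in Nefh-low neurons (-1.34, adjusted p = 0.00723). Others that rose included Cntn1, a ligand of beta subunits, and Cntnap1, Kcna2, Kcnab2, Nfasc, Nrcam and Sptbn4.

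Other genes tied to sodium channels moved less. Of 8 cytoplasmic partners tested 0 were higher and 1 was lower (median -0.05), against 11.6% higher and 11.2% lower over all genes. The lower gene was Nedd4l, a ubiquitin ligase that removes sodium channels from the membrane. It averaged 79.3 ± 35.4 CPM in Nefh-high and 162.6 ± 57.9 CPM in Nefh-low neurons (-1.12, edgeR adjusted p = 0.0190). Fgf11 and Fgf13, of the family that binds the alpha subunit tail, had changes of 1.51 ± 0.54 and -0.63 ± 0.23 that did not pass. Of 9 secretase genes, whose products cut beta subunits, 1 was higher and 1 lower (median -0.12), a share close to the 22.7% called over all genes. Bace2 averaged 49.6 ± 21.8 CPM in Nefh-high and 8.86 ± 6.52 CPM in Nefh-low neurons (2.46, adjusted p = 0.0134). Adam10, an alpha-secretase, averaged 42.2 ± 10.6 CPM in Nefh-high and 69.5 ± 21.5 CPM in Nefh-low neurons (-0.79, adjusted p = 0.0224). Bace1, the beta-secretase known to cut the Scn2b and Scn4b proteins, had a change of 0.29 ± 0.12 that did not pass. Mpzl1 and Mpzl3, whose products resemble beta subunits in their immunoglobulin domain, had changes of 0.15 ± 0.12 and 0.73 ± 0.35 that did not pass.

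The second comparison asked whether beta subunits differ between neurons of hairy and of glabrous skin. The mean of Scn4b was lower in hairy-skin neurons without passing the threshold, and the skin types also differed in their share of Nefh-low cells. Sums per skin type were made in the 7 litters that had 2 or more cells of both. By edgeR 12 of 12852 genes passed, 0.0934% of genes (0.0389% higher, 0.0545% lower), and none of the 3 subunits was among them. At an unadjusted p below 0.05 there were 1277 genes.

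Scn4b measured 66.01 CPM in hairy-skin neurons of litter C_D, and 24.6, 4.12, 30.8, 22.6, 61.6 and 30.98 CPM in those of E_F_G, H, K, L, O and P_Q. In glabrous-skin neurons of the same litters it measured 65.4, 62.04, 23.6, 72.1, 87.9, 60.1 and 86.97 CPM. Hairy-skin neurons were lower in 5 litters and nearly equal to glabrous in C_D and O, and the groups overlapped. The means were 34.4 ± 22.0 CPM in hairy and 65.5 ± 21.6 CPM in glabrous neurons, a log2 fold change of -1.17 ± 0.33 (edgeR p = 0.00527, adjusted p = 0.272). The change was -1.12 on plate 1 (3 litters) and -1.27 on plate 2 (4 litters). It passed with DESeq2 (-1.18, adjusted p = 0.0226) and with no filter on low counts (-1.20, adjusted p = 0.00318), and over 20 alternatives the adjusted p ranged from 0.00318 to 0.997. Of 45 hairy-skin neurons 26 were Nefh-low, against 20 of the glabrous-skin neurons (84 of which were Nefh-high), and with the Nefh class as a term in the model the change was -0.83 ± 0.25 (adjusted p = 0.645).

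Scn3b measured 52.8, 110.4, 88.6, 99.3, 179.0, 106.98 and 96.9 CPM in hairy-skin neurons of those litters, and 54.7, 85.5, 104.1, 60.5, 54.5, 106.5 and 92.9 CPM in glabrous-skin neurons. The widest gap was in litter L, and the groups overlapped. The means were 104.9 ± 37.9 CPM in hairy and 79.8 ± 22.9 CPM in glabrous neurons (0.35 ± 0.19, edgeR adjusted p = 0.585, higher in 5 of 7 litters). Scn2b averaged 18.0 ± 5.06 CPM (12.7 to 26.1) in hairy and 19.97 ± 5.20 CPM (12.7 to 28.5) in glabrous neurons (-0.16 ± 0.22, edgeR adjusted p = 0.853, higher in 2 of 7 litters). In the mix, Scn4b held 19.7 ± 14.2% of the CPM per kb in hairy and 36.1 ± 12.4% in glabrous neurons, and Scn3b held 68.98 ± 12.95% in hairy and 51.97 ± 11.9% in glabrous neurons. Schwann cell markers had summed medians of 3532 CPM (1544 to 13033) in hairy and 1533 CPM (1301 to 7752) in glabrous neurons. Fibroblast markers had 286 CPM (2.75 to 2664) in hairy and 287 CPM (161 to 1419) in glabrous neurons, and A-fibre touch neuron markers other than Nefh 956 CPM (656 to 1736) in hairy and 1364 CPM (817 to 1458) in glabrous neurons. Without the 25% of cells richest in non-neuronal markers the change of Scn4b was -0.93 and that of Scn3b 0.08.

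**Figure D5:**
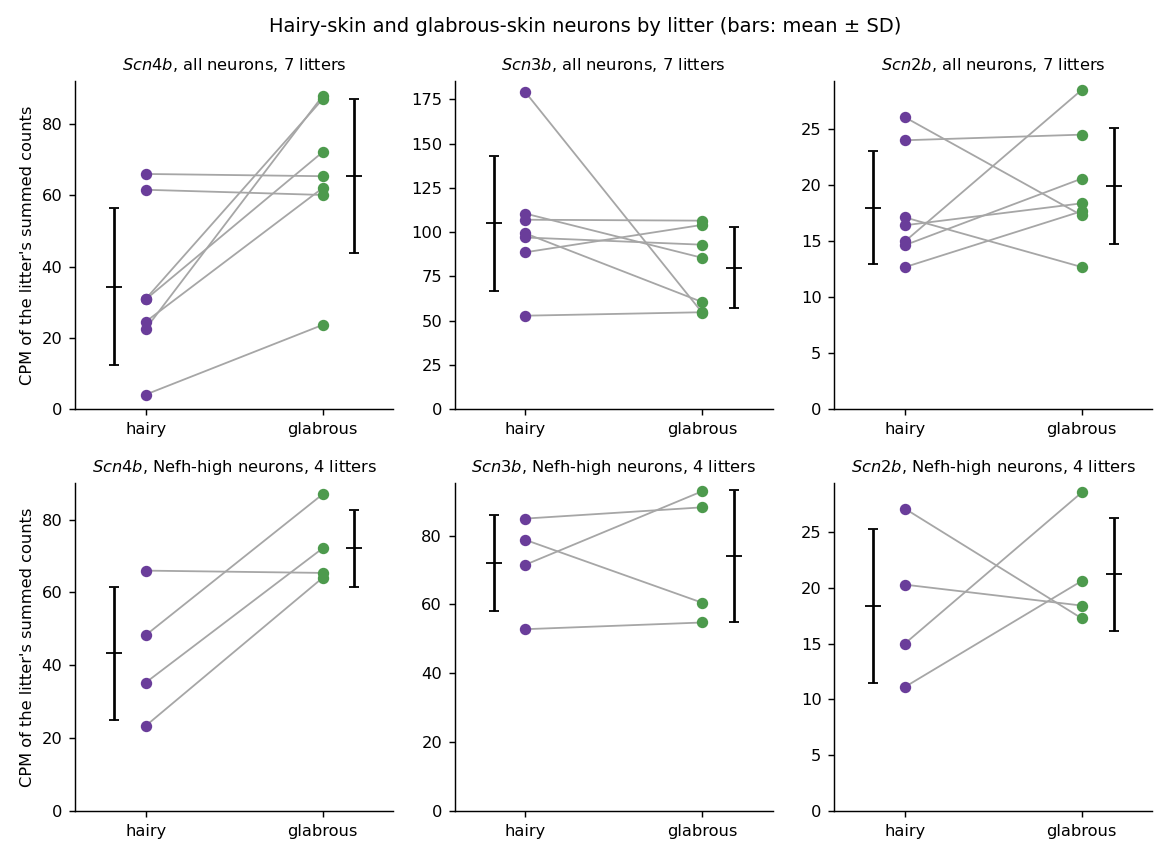
CPM of summed counts per litter, hairy left and glabrous right, for all neurons (top, 7 litters) and Nefh-high neurons (bottom, 4 litters); lines join the skin types of a litter and bars give the mean ± SD. Scn4b is lower in hairy-skin neurons in 5 of 7 litters above and in 3 of 4 below, with litter C_D level in both rows.

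Within Nefh-high neurons alone, 4 litters had 2 or more cells of both skin types. By edgeR 0 of 13189 genes passed (0% of genes), with 571 at an unadjusted p below 0.05, and DESeq2 called 62 and limma 1. Scn4b measured 66.01, 23.4, 35.3 and 48.3 CPM in hairy-skin neurons of litters C_D, E_F_G, K and P_Q, and 65.4, 64.03, 72.1 and 86.97 CPM in glabrous-skin neurons. It was lower in hairy-skin neurons in 3 of 4 litters. The means were 43.2 ± 18.3 CPM in hairy and 72.1 ± 10.5 CPM in glabrous neurons (-0.79 ± 0.26, edgeR p = 0.0161, adjusted p = 1.00). Scn3b averaged 72.01 ± 13.9 CPM in hairy and 74.1 ± 19.2 CPM in glabrous neurons (-0.0031 ± 0.18), and Scn2b 18.4 ± 6.92 CPM in hairy and 21.2 ± 5.09 CPM in glabrous neurons (-0.21 ± 0.35), with edgeR adjusted p of 1.00 for both.

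Within Nefh-low neurons, 5 litters could be compared only by admitting sums of 1 cell, and precision was low. By edgeR 0 of 11055 genes passed (0% of genes), in a fit that also made no calls when tested on simulated data, with 55 at an unadjusted p below 0.05, and DESeq2 called 4 and limma 0. Scn4b measured 25.4, 1.35, 22.6, 38.9 and 38.3 CPM in hairy-skin neurons of litters E_F_G, H, L, M and O, and 42.7, 10.3, 0, 79.5 and 1.42 CPM in glabrous-skin neurons. The glabrous value of litter L was 1 cell below 10000 genes with no count of Scn3b or Scn4b. The changes of 0.45 ± 1.58 for Scn4b, 0.54 ± 1.21 for Scn3b and -0.10 ± 0.88 for Scn2b had errors wider than themselves, where the median of all genes was shifted by 0.56. Without the cells below 10000 genes (4 litters) they were -0.52, -0.30 and -0.37.

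Whether the skin difference itself differed between the Nefh classes was tested as an interaction over 22 sums of 10 litters. Only litter E_F_G gave sums for every combination of skin type and class. The skin difference within Nefh-low neurons was thus seen inside that litter alone and otherwise pieced together across litters. By edgeR 0 of 14569 genes passed (0% of genes), with 1135 at an unadjusted p below 0.05. The hairy over glabrous change in Nefh-high minus that in Nefh-low neurons was 0.06 ± 0.47 for Scn4b, -0.85 ± 0.33 for Scn3b (p = 0.0227, edgeR adjusted p = 0.585) and -0.69 ± 0.71 for Scn2b. No difference between the classes in the skin effect was shown for any of the 3.

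Age was compared in glabrous-skin neurons, in 7 litters at P5 and 2 at P4. By edgeR 0 of 15185 genes passed (0% of genes), with 422 at an unadjusted p below 0.05, and DESeq2 called 3 and limma 0. Scn4b averaged 60.3 ± 19.2 CPM at P5 and 79.6 ± 10.5 CPM at P4 (-0.34 ± 0.39). Scn3b averaged 81.2 ± 21.4 CPM at P5 and 76.7 ± 22.9 CPM at P4 (0.11 ± 0.26), and Scn2b 22.2 ± 7.55 CPM at P5 and 19.5 ± 1.56 CPM at P4 (0.21 ± 0.32), each with an edgeR adjusted p of 1.00. The P4 values of all 3 genes lay within the range of the P5 litters.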

How the data were processed

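Per the submitters' processing notes, FastQC, cutadapt, Salmon and mm10 were used; the sources used here give neither their versions nor the annotation. In the deposited table the authors' Salmon expected counts of each gene stand as whole numbers, with no scaling between cells. CPM was the count divided by the total of the cell (or sum) and scaled to a fixed total, the same for all. Counts were summed per litter and group (at least 2 cells per sum, 1 for skin types within Nefh-low) and tested with edgeR 4.0.16 (R 4.3.3; TMM, filterByExpr by the compared groups, quasi-likelihood test, Benjamini-Hochberg adjusted p of 0.05). The litter, which by label marks shared origin, was a block, except for age; correlations of same-litter deviations ran from -0.22 to 0.27. The filter had first grouped by the whole design and was changed after seeing the data, which moved Scn3b across the threshold in the Nefh comparison; the earlier form is an alternative. DESeq2 1.42.0, limma 3.58.1, other filters, cell sets, plates and Nefh divisions were alternatives.

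Cells were clustered with scanpy 1.11.5 (Leiden resolution 1, 2000 variable genes, seed 0) and named from marker lists; doublets were not removed, each library being 1 labelled neuron. Depth per cell ran from 395811 to 1053854 counts, and the smallest sums (1 cell) were the least precise. On simulated data the fit of skin types within Nefh-low neurons made no calls, so its count of genes called says nothing about them; each other fit tried missed most of the smallest changes, and the interaction was not simulated. Positions come from GENCODE models of mm10. Genes named were the 3 members, alpha subunits of at least 1 CPM, up to 3 genes of smallest p in each other list, and 5 most alike genes per member; further node genes were named after their values were seen. Members and lists were chosen with earlier results of these data known. In fits with the litter as a block, p-values measure the spread left after each litter's own level is taken out. For age, which had no block, they measure the spread between litters. Cells of a litter may share animals.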

Additional observations from a re-analysis of the deposited data

Results flagged for a closer look

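In Nefh-high neurons of litter M the Scn2b sum stood far from those of the other litters, at 1.48 CPM with the next lowest at 13.6 CPM (gap over range 0.591, limit 0.568 for 7 litters). It was a sum of 2 cells, and 27 groups were checked, of which chance alone would set apart about 1 in 20. The cell labelled with both skin types, which entered no comparison, contained all 3 subunits: 23.8 CPM of Scn2b, 93.999 CPM of Scn3b and 188 CPM of Scn4b, with 2741 CPM of Nefh.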

How the results depend on the processing

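The higher Scn4b of Nefh-high neurons kept its direction in 25 of 25 alternatives and passed in 22. It did not pass on plate 1 alone (1.24), in glabrous cells (1.02) or in hairy cells (0.87), each with 3 litters. The lower Scn3b passed in 9 of 25. It did not pass with RLE size factors (-0.60), with the filter by the whole design (-0.58), with at least 3 cells per sum (-0.36), without the 25% of cells richest in non-neuronal markers (-0.33; -0.32 also without the cells below 10000 genes), on plate 1 (-0.14), in glabrous (-0.057) or hairy cells (-0.99) or without cluster 8, the Calca-rich cells (-0.73). Leaving out 1 litter gave -0.75 to -0.46, and limma on mean log2 values gave 0.019. In that limma fit 87.8% of calls were higher, against 50.9% in edgeR. Scn2b changed sign with at least 3 cells per sum (0.038) and with Nefh divided at 300 CPM (0.028). The count of genes called, 2988, was 1518 without the cells richest in non-neuronal markers, 1744 without those and the cells below 10000 genes, 620 on plate 1, 1215 on plate 2, 180 in glabrous and 404 in hairy cells. The alternatives of hairy cells, of cluster 8, of the double exclusion, of the filter by the whole design and of Nefh-high cells at P5 and P4 were chosen after seeing the data.

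Between skin types, Scn4b was lower in hairy-skin neurons in 20 of 20 alternatives and passed in 2, with no filter (-1.20) and with DESeq2 (-1.18). Scn3b was -0.016 with single-cell sums admitted. The 12 genes called became 342 with no filter, 337 with DESeq2, 21 with limma (14.3% of them higher, against 41.7%), 1 with single-cell sums, 21 with at least 3 cells, 1 without the cells richest in non-neuronal markers, 0 on either plate and 0 with the Nefh class in the model. Leaving out 1 litter gave 0 (without K, O or P_Q) to 15 genes.

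Within Nefh-high neurons the 0 genes called became 212 with no filter, 62 with DESeq2, 1 with limma, 3 with at least 3 cells, 1 without the cells richest in non-neuronal markers and 2 with Nefh divided at 1000 CPM, and 0 to 1 without 1 litter. Scn4b stayed lower in hairy-skin neurons in 18 of 18 alternatives. Scn3b changed sign with RLE (0.013), DESeq2 (0.012), plate 2 (0.15) and 1000 CPM (0.13), and ran from -0.13 to 0.11 without 1 litter; Scn2b ran from -0.52 to 0.020.

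Within Nefh-low neurons DESeq2 called 4 genes. Scn2b was 0.013 with no filter and 0.26 on plate 1. Without the cells below 10000 genes Scn3b was -0.30 and Scn4b -0.52, and without the cells richest in non-neuronal markers they were -0.64 and -1.74. Scn4b was -1.64 on plate 1. Leaving out 1 litter gave -0.28 to 0.091 for Scn2b, -0.22 to 1.02 for Scn3b and -0.50 to 1.53 for Scn4b. At least 3 cells per sum gave no value there, and at least 1 was the main setting.

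Without the replicate block (litter), Scn4b within Nefh-low neurons was -0.14; in the Nefh comparison it was 1.45 and Scn3b -0.63 (adjusted p = 0.0194), and no call of the 3 genes changed in any comparison. No paired analysis was possible for age, because no litter held both ages.

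For age, DESeq2 called 3 genes and leaving out 1 litter 0 to 1. Scn2b was -0.013 with plate as a term, and Scn3b was -0.26 with limma and -0.13 to 0.40 without 1 litter. For the interaction, leaving out 1 litter gave 0 to 4 genes and -0.17 to 0.21 for Scn4b, which was -0.26 at 300 CPM, -0.34 at 1000 CPM and -0.094 with single-cell sums.

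Among named genes that had not passed, Scn2a was -0.38 in hairy cells, Scn3a -0.13 with single-cell sums, Scn9a -0.0077 at 1000 CPM and Fgf13 0.26 with limma. Without the cells richest in non-neuronal markers Bace1 was -0.13 and Mpzl1 -0.060, and -0.10 and -0.038 also without the cells below 10000 genes.

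The rho of Scn2b with Scn9a was 0.69 and with Scn1a 0.24 in Nefh-low neurons. Scn3b with Scn8a was 0.36 there and 0.17 as Pearson's r on log2(CPM + 1). Scn4b with Scn1a was 0.23 in Nefh-high neurons and 0.74 as Pearson's r. The causes of these shifts were not tested. Sums of 1 or 2 cells and the few litters per comparison limit all of these values.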
